A study of Mus musculus with 9 samples.

Results

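The genes described here encode the proteins of the cytosolic ribosome. They were found by their symbols: Rpl or Rps, or Rplp, followed by a number and in some cases a or x, and the laminin receptor gene Rpsa. The rule took 76 of the 24453 genes listed, 46 for the large subunit and 30 for the small subunit, and all 76 had enough reads to be tested. RNA of 3 groups of liver cells was sequenced, with 3 libraries a group and the cells of 3 to 5 mice combined in a library. The hepatic stellate cells (HSC), which store retinoids in the healthy liver, came from wild-type C57BL/6J mice without treatment and were separated by density gradient. CCl4-fib were fibroblasts from Col1a2-GFP Tg mice that received the liver toxin carbon tetrachloride at 1 ml/kg, 2 times a week for 8 weeks. NASH-fib were fibroblasts from MC/COL mice, the Col1a2-GFP Tg line crossed with MC4R-KO mice, which were males of 8 weeks when they began 20 weeks of Western diet. Both fibroblast groups were sorted as cells without CD45 and with GFP, which in these mice is driven by the Col1a2 promoter, so the way the cells were isolated and the Col1a2-GFP transgene cannot be told apart from the difference between HSC and either fibroblast group. The MC4R deletion, the diet and its length likewise cannot be told apart in NASH-fib.

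Each ribosome holds 1 copy of nearly every one of these proteins, and the genes are therefore usually transcribed and translated together. Their mRNAs begin with a run of pyrimidines, the TOP element, through which mTOR signalling sets how well they are translated. In fibrosis, HSC turn into fibroblasts that divide and secrete large amounts of collagen, which places a demand on protein synthesis. Rplp0, Rplp1 and Rplp2 form the stalk of the large subunit, which recruits the elongation factors. Rplp0 was also the reference gene of the study's qPCR in mouse samples.

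The start of the mRNA carries the element by which these genes are known, so the 30 bases around the annotated start are shown for genes to which the results below turn. The sequences are from RefSeq on GRCm38.p6, the assembly behind mm10, on the strand of the gene, and the capitals mark the longest run of C and T that begins within 10 bases of the start. Rplp1, Rpl8, Rpl36 and Rps20 had no entry in the promoter table.
Rplp0, chr5:115559452-115559481: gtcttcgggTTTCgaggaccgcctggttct
Rplp2, chr7:141447636-141447665: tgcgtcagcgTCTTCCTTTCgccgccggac
Rpl10a, chr17:28328456-28328485: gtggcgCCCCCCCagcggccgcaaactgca
Rpl12, chr2:32961697-32961726: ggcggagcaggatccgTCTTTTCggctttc
Rps10, chr17:27635230-27635259: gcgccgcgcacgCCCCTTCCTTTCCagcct
Rps13, chr7:116334176-116334205: gagagcaaacgTCggtgagtggcgtcactt
Rps16, chr7:28350674-28350703: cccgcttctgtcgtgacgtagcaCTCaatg
Rps2, chr17:24720048-24720077: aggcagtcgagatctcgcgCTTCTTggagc
Rps27, chr3:90213634-90213663: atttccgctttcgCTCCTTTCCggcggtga

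A promoter of 300 bases, 250 before and 50 after the start, was found for 56 of the 76 genes. A run of at least 5 pyrimidines at the start was present in 57.1% of these 56 against 38.1% of the promoters of all 27025 genes in the table. The median run was 5 bases against 4. For runs of at least 8 the shares were 33.9% against 9.17%. The letters CCGGAAG, which GABP binds, were found on either strand in 22 of the 56 (39.3%, against 9.12% of all promoters). The letters AAGATGG, which YY1 binds, were found in 8 (14.3%, against 6.48%), and 2 promoters held both. The 7 genes with a promoter among the 10 that were higher in CCl4-fib than in both other groups had runs of 2 to 13 pyrimidines. Rplp2 and Rps10 held the GABP letters and Rps16 the YY1 letters. These matches describe the letters of the window and were not tested.

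The deposited values are read counts multiplied by 1 factor per library, so whole reads could be recovered. The libraries held 3071070 to 5634273 reads on genes, and 3 reads corresponded to a value of 2.38 to 4.37 depending on the library. By the file header at most 3 reads were kept per position, which limits how many reads a short, highly expressed gene can have. Ribosomal protein genes are short, so their reads per base of exon are given as a guide to where that limit may act. The median over the 76 genes was 1.85, 0.63 and 2.11 reads per base in HSC replicates 1 to 3, with 3.27, 3.12 and 3.04 for CCl4-fib, while NASH-fib had 0.57, 2.76 and 2.29. The number of genes at 3 or more reads per base was 15, 8 and 20 in HSC and 41, 39 and 38 in CCl4-fib, while NASH-fib had 8, 33 and 30. The highest value in any library was 5.57, and reads on both strands were counted. Whether the limit holds for each strand is not stated, so 3 reads per base need not be the ceiling. Rpl32 and Rpl7 had the most reads per base on average over the libraries (4.90 and 4.71). The fewest were seen for Rps2 (0.18), Rps15a (0.31) and Rpl21 (0.32), and the entry for Rps15a has a listed length of 5127 bases. Near-identical copies are common for this family, with 294 named pseudogenes in the mm10 annotation used here, and how reads shared with them were assigned is not given in the sources used here.

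**Figure D1:**
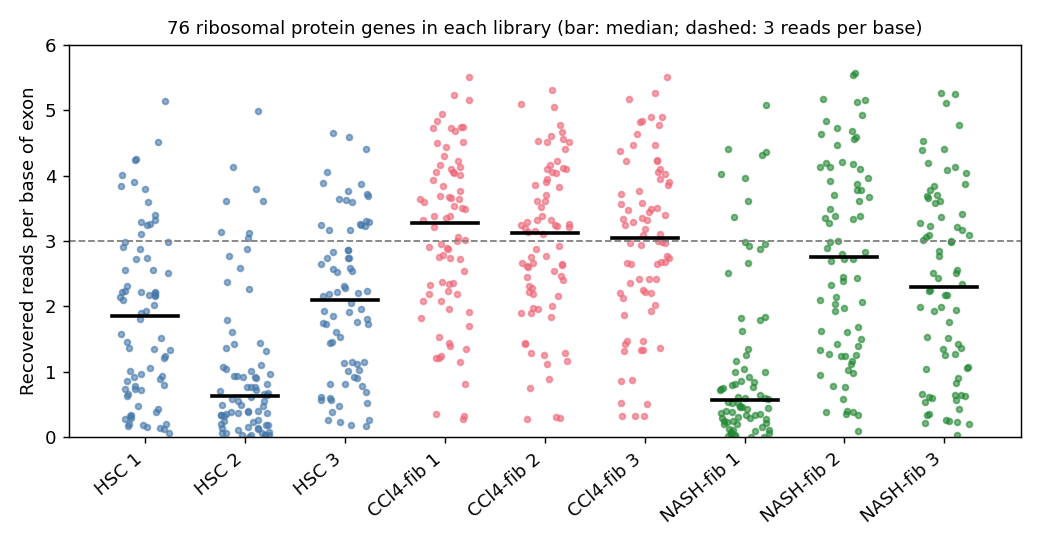
Recovered reads per base of exon (y axis) of the 76 ribosomal protein genes in each of the 9 libraries (x axis). Points are genes, bars are medians and the dashed line marks 3 reads per base. The 3 CCl4-fib libraries have medians of 3.27, 3.12 and 3.04, whereas HSC replicate 2 and NASH-fib replicate 1 lie at 0.63 and 0.57.

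For 11 genes the number of reads varied by less than 1.5-fold over all 9 libraries, although the depth varied by 1.83-fold. Rpl7, Rpl9, Rpl35a, Rps24, Rps27 and Rps27a were among them. Rps27 had 1661, 1736 and 1508 reads in HSC, 1643, 1578 and 1583 in CCl4-fib, while NASH-fib had 1646, 1651 and 1578. No group of libraries stood out in these reads. Its deposited values nevertheless were 1941.69, 2527.91 and 1802.88 in HSC and 1304.07, 1342.1 and 1510.27 in CCl4-fib, and these groups did not overlap. Values are reads times the factor of the library, so the values of genes chosen for level reads follow that factor by construction. All 11 had a negative log2 fold change in CCl4-fib against HSC (median -0.47), where the mean log2 value of 1 read differed by -0.55. All 11 were positive in NASH-fib against CCl4-fib (median 0.35), where the value of 1 read differed by 0.30. None of the 11 passed the test in any comparison.

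**Figure D2:**
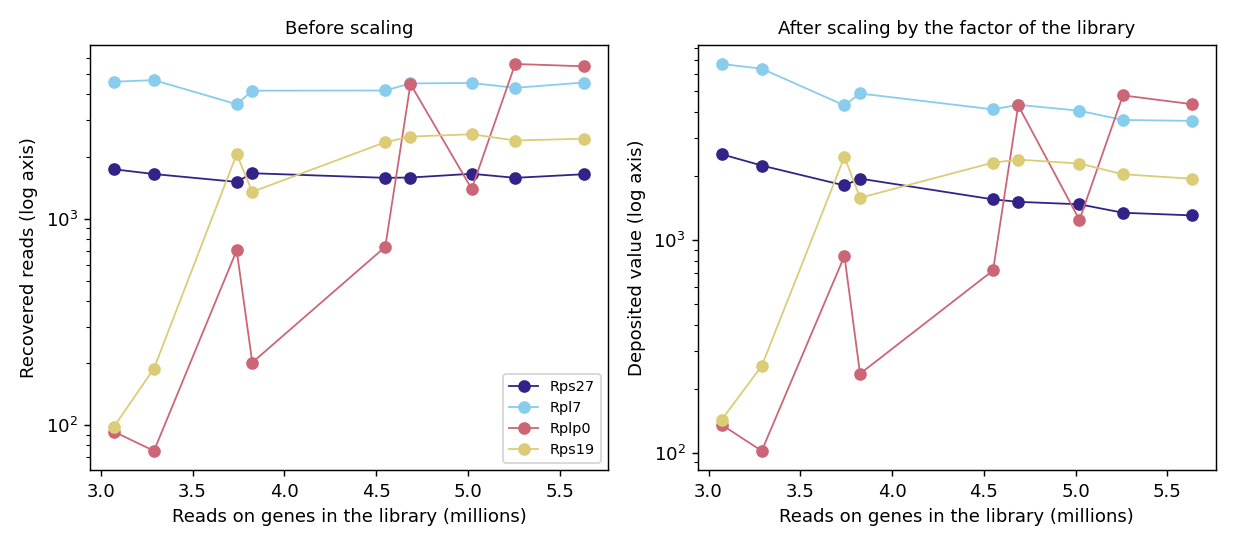
Reads recovered (left) and deposited values (right) of Rps27, Rpl7, Rplp0 and Rps19 on log axes, against the reads on genes of each library (x axis). Points are the 9 libraries and lines join the points of a gene. Reads of Rps27 and Rpl7 are nearly level and their values fall with depth, whereas Rplp0 and Rps19 vary in both.

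HSC replicate 2 and NASH-fib replicate 1 stood apart from the other libraries of their groups. Relative to the other 2 libraries of the group, the median log2 difference of the 76 genes was -0.97 in HSC replicate 2 and -1.33 in NASH-fib replicate 1. Their differences were alike, with r = 0.90 and rho = 0.91 over the 76 genes, which share these libraries and their base composition. Rpl28, a large subunit gene, had 437, 16 and 1339 reads in HSC and 44, 1848 and 1460 in NASH-fib. Thus in both groups 1 library lay far below the others. By contrast, 21 genes in HSC replicate 2 and 14 in NASH-fib replicate 1 were within 0.5 of the other libraries on the log2 scale. In total 13 and 15 genes were lower by at least 3 on this scale, among them Rpl28, Rps18 and Rps19. The differences were more negative in genes of high GC content (rho = -0.42 and -0.46). In the 38 genes of lower GC content the median difference was -0.30 and -0.07, and in the 38 of higher GC content it was -1.59 and -1.88. The same direction was seen over the 13566 tested genes with a GC value, where rho was -0.39 and -0.51. Both libraries have the prefix 11-3 in their labels, which the labels do not explain, and CCl4-fib replicate 1 has the same prefix without this pattern. What set these libraries apart was not tested, and the counts, medians and shares below are also given without them.

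**Figure D3:**
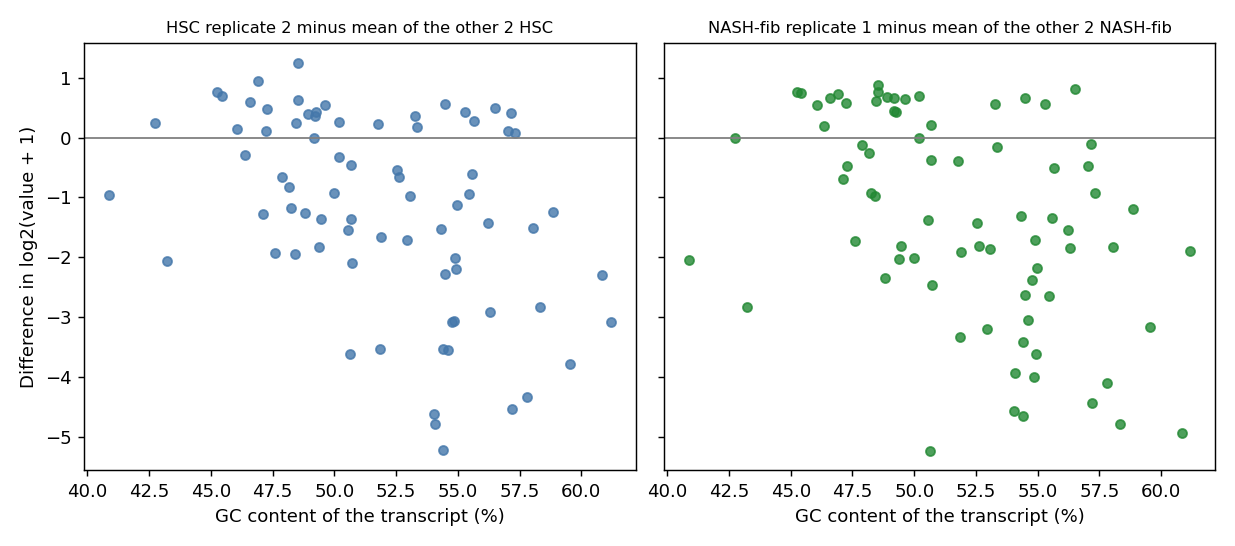
Difference in log2(value + 1) between HSC replicate 2 (left) or NASH-fib replicate 1 (right) and the mean of the other 2 libraries of the group (y axis), against the GC content of the transcript in percent (x axis). Each point is 1 of the 76 genes, and the deepest differences, down to -5.22 and -5.24, are at a GC content above 50%.

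The 76 genes took 2.74%, 1.91% and 3.13% of the reads in HSC, 3.06%, 3.13% and 3.57% in CCl4-fib, while NASH-fib had 1.96%, 3.10% and 2.88%. The group means were 2.59% ± 0.62, 3.25% ± 0.27 and 2.65% ± 0.61 (SD, n = 3). Without the library that stood apart, the mean was 2.93% in HSC and 2.99% in NASH-fib. CCl4-fib replicate 1 lay below the highest library of either other group, so the groups overlapped. The cap on reads per position lowers this share in libraries where many genes reach it, and how much was not measured.

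The labels were checked against markers, whose summed values are given because they moved with the groups. The 10 markers of activated fibroblasts summed to 6964.06 to 12297.32 in HSC, 52917.59 to 60355.26 in CCl4-fib and 34928.05 to 39951.83 in NASH-fib, and those of quiescent stellate cells to 49151.32 to 59654.82, 8158.14 to 20761.92 and 18895.49 to 32038.94. The 15 hepatocyte markers summed to 29914.41 to 62138.55 in HSC, 2714.81 to 4215.96 in CCl4-fib and 10296.58 to 39632.78 in NASH-fib, and none was at 0 in any library. Markers of sinusoidal endothelial cells reached 8506.93 to 16958.85 in HSC, 291.96 to 375.06 in CCl4-fib and 1371.57 to 4328.29 in NASH-fib. Those of macrophages reached 4539.19 to 16052.58, 416.69 to 927.07 and 2945.3 to 5994.16 in the same order. In that order, cholangiocyte markers reached 70.14 to 250.45, 3487.58 to 4756.87 and 6066.08 to 11777.57, and smooth muscle markers 132.52 to 444.75, 3302.51 to 14737.66 and 5853.44 to 21896.13. Neutrophil markers reached 52.61 to 1076.1, 5.55 to 78.23 and 614.43 to 6458.86, with up to 8 of the 10 at 0 in a CCl4-fib library, and lymphocyte markers 129.76 to 371.32, 36.51 to 53.44 and 131.8 to 570.03. Markers of dividing cells reached 325.18 to 377.16, 473.84 to 830.99 and 279.12 to 463.55. Mesothelial markers had their highest sum in NASH-fib, at 21365.32 to 26565.33, with 12446.62 to 20228.56 in CCl4-fib and 554.79 to 793.73 in HSC. By gene, only 2 of the 6 had a positive log2 fold change in NASH-fib against CCl4-fib, with a median of -0.92. Wt1 passed as lower (-1.67) and 0 passed as higher. The part of these cells in the results below was not tested, and in such bulk samples fewer cells of a type and less RNA per cell cannot be told apart. The lists overlap, so their sums are not independent. Spp1 is a marker of both activated fibroblasts and cholangiocytes, Krt19 of cholangiocytes and mesothelial cells, and Des of quiescent stellate cells and smooth muscle. In NASH-fib against HSC, 8 of the 10 activated fibroblast markers were higher and 1, Postn, was lower (-1.71).

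CCl4-fib were first compared with HSC, the question being how fibroblasts of the toxin model differ from HSC, their main precursor. The stalk genes and 8 further ribosomal protein genes were higher in CCl4-fib, and no gene was lower. Thus 11 of 76 genes (14.5%) passed limma's test with an adjusted p under 0.05, all of them by more than a log2 fold change of 1. Over all 13651 genes tested, 16.2% were higher and 11.7% were lower by this rule, so the share that rose was near that of all genes. The median log2 fold change was 0.46, against 0.18 for all genes, and it was 0.06 without HSC replicate 2. The groups did not overlap in 17 genes that were higher in CCl4-fib (22.4%, against 27.8% of all genes) and in 6 that were lower (7.89%, against 20.9%), of which all 6 were among those with level reads. By subunit, 7 of 46 large and 4 of 30 small subunit genes rose.

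Rplp0, which anchors the stalk (NM_007475, chr5:115559467-115563729), had values of 234.97, 135.42 and 840.47 in HSC, 4345.57, 4779.84 and 4290.39 in CCl4-fib, while NASH-fib had 101.95, 1241.54 and 718.43. The CCl4-fib libraries lay above all others and close together, at 4.05, 4.16 and 3.33 reads per base. How far the cap on reads per position narrowed their spread was not measured. The log2 fold change against HSC was 3.89 (SE 0.87, limma adjusted p = 0.00748). It held in each of the 22 alternatives, with 3.19 to 4.64.

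Rplp1, which sits on the stalk with Rplp2, had values of 151.97, 232.99 and 319.21 in HSC, 1738.23, 1878.77 and 996.99 in CCl4-fib, while NASH-fib had 131.86, 320.63 and 194.6. Again the CCl4-fib libraries did not overlap with any other. The log2 fold change against HSC was 2.72 (SE 0.44, limma adjusted p = 0.00137). Rplp2 followed with 94.69, 90.28 and 199.66 in HSC, 715.13, 984.89 and 587.7 in CCl4-fib, while NASH-fib had 46.22, 156.75 and 90.42. Here, too, every CCl4-fib library was above all others. The log2 fold change of Rplp2 against HSC was 2.63 (SE 0.50, limma adjusted p = 0.00333), and this gene was called in all 22 alternatives. Rplp1 missed the call under both versions of a correction for GC content and length, with 1.25 and an adjusted p of 0.054 in the later one.

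In the large subunit, Rpl10a, which forms the L1 stalk beside the exit site for tRNA, had values of 368.23 to 801.02 in HSC and 1962.85 to 2695.21 in CCl4-fib. Its log2 fold change was 1.96 (SE 0.40, limma adjusted p = 0.00478). Rpl8, a protein of the peptidyl transferase region, differed by 2.28 (SE 0.64) and Rpl12, at the base of the stalk, by 1.18 (SE 0.32). Under the later correction for GC content and length Rpl12 turned to -0.22, and the calls of Rpl10a, Rps13 and Rps16 against HSC were lost in both versions. The largest change was that of Rpl36, at 4.07 (SE 1.24, limma adjusted p = 0.0328). Its values were 57.28, 24.75 and 276.17 in HSC, 1306.45, 1330.19 and 1121.97 in CCl4-fib, while NASH-fib had 5.44, 274.31 and 140.54, so the HSC libraries spread widely. The call of Rpl36 was lost without HSC replicate 1 or 2 or any 1 of the CCl4-fib libraries. It was also lost with the label prefix as a term. The call of Rpl8 was lost in the same settings except without CCl4-fib replicate 3, and that of Rpl12 except without HSC replicate 2. Exons of Rpl12 share bases with Lrsam1 and those of Rps10 with Gm15420, and reads of such genes cannot be told apart without strand.

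In the small subunit, Rps10 and Rps20, both in the head of the subunit, differed by 2.57 (SE 0.70) and 1.14 (SE 0.33). Rps13 and Rps16 differed by 1.25 (SE 0.34) and 1.18 (SE 0.33). The calls of Rps13, Rps16 and Rps20 were lost without HSC replicate 1 or any 1 of the CCl4-fib libraries, and with the label prefix as a term. That of Rps10 was lost without HSC replicate 2 or CCl4-fib replicate 1 or 2. Rps20 was also not called by edgeR (0.98, edgeR adjusted p = 0.062). Rps16 had 653.46, 831.47 and 828.51 in HSC and 1686.64, 1748.64 and 1791.72 in CCl4-fib. The changes of Rps13, Rps16 and Rps20 were thus smaller than those of the stalk genes, whereas that of Rps10 was close to those of Rplp1 and Rplp2. The spread of these small subunit genes in CCl4-fib was small except for Rps10, whose values there ran from 280.49 to 1038.47. Rps16 had 3.50, 3.38 and 3.09 reads per base in CCl4-fib. How far the cap on reads per position narrowed such spreads and changes was not measured.

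Some genes with large changes and wide errors did not pass. Rpl29 differed by 3.87 (SE 1.43, adjusted p = 0.0677) and Rpl18 by 3.66 (SE 1.26, adjusted p = 0.0518), both from limma. Rpsa, which also serves as a laminin receptor, had 431.36, 84.46 and 2556.08 in HSC and 3281.21, 3487.07 and 4264.63 in CCl4-fib, with 3.00 (SE 1.42, limma adjusted p = 0.139). Without both libraries that stood apart, 16 genes passed in CCl4-fib against HSC, namely the same 11 and Rpl18, Rpl27a, Rpl29, Rps26 and Rpsa. Leaving out CCl4-fib replicate 1, 2 or 3 gave 4, 4 and 6 genes, and leaving out HSC replicate 1 gave 5. Corrected for GC content and length it was 4, and 2 genes, Rps6 and Rpl38, were then lower, of which Rps6 was not called in the first version of the correction.

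At the other end were Rpl9 (-0.59), Rps27 (-0.58) and Rps24 (-0.57), all 3 with level reads. Genes known for separate roles did not pass the test. Rps6, the substrate of S6 kinase, differed by -0.05 (SE 0.45), Rps3 by 0.39 (SE 0.52) and Rpl3 by 0.42 (SE 0.59). Rpl5, which with Rpl11 restrains Mdm2, differed by 0.08 (SE 0.29) and Rpl11 by 0.93 (SE 0.77). Rps14 and Rps19, whose human counterparts are lost or mutated in anaemias, differed by 0.79 (SE 0.85) and 1.36 (SE 1.05). The wide error of Rps19 came with 1578.13, 142.7 and 2459.24 in HSC against 1939.04, 2035.26 and 2385.14 in CCl4-fib, that is with HSC replicate 2 far below the rest. Rpl13a differed by 1.23 (SE 0.56), Rpl41 by 0.95 (SE 0.76) and Rpl38 by 0.45 (SE 0.51). Rpl10, Rpl22, Rpl39, Rps4x and Rps27a, which encodes ubiquitin fused to a ribosomal protein, lay between -0.40 and 0.25. None of the 16 genes named for such roles, Rpsa included, passed in any comparison.

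**Figure D4:**
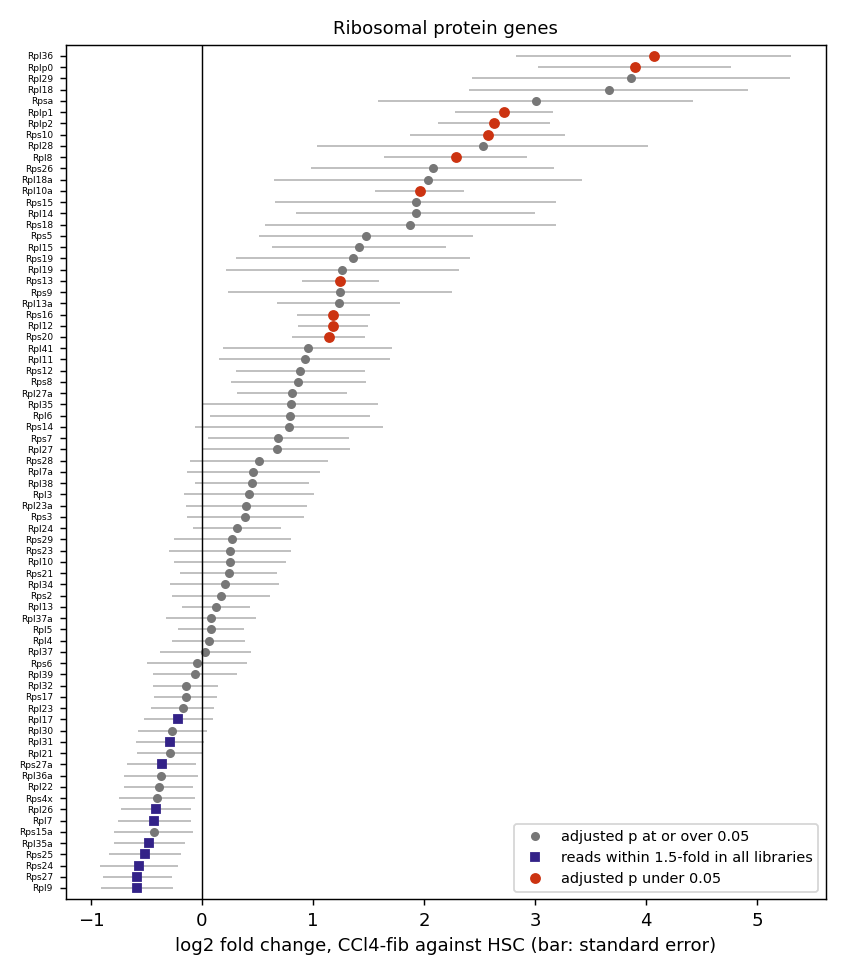
Log2 fold change of ribosomal protein genes in CCl4-fib against HSC (x axis), with bars for the standard error and genes ordered by the change (y axis). Red points passed the test, and blue squares had reads within 1.5-fold in all libraries. The red points reach from 1.14 to 4.07, and the squares lie below 0.

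The fold changes also moved with base composition, as the libraries that stood apart did. Over the 76 genes the rho of GC content with the log2 fold change in CCl4-fib against HSC was 0.55, with medians of 0.04 and 1.21 in the 38 genes of lower and the 38 of higher GC content. In NASH-fib against CCl4-fib rho was -0.56, and the medians were 0.06 and -1.16. Without both libraries that stood apart, rho was 0.42 and -0.34, and the medians were -0.19 and 0.31 in the first comparison and 0.10 and 0.02 in the second. Within the label prefix 11-3 the median difference between CCl4-fib and HSC was 1.18, and within 11-4 it was -0.17, each over 1 library per group. Between NASH-fib and CCl4-fib it was -1.64 within 11-3, again over 1 library per group. Within 11-7 it was -0.14, from the mean of NASH-fib replicates 2 and 3 against CCl4-fib replicate 3. The libraries that stood apart are both in 11-3. With the prefix as a term in the fit, 5 genes were higher in CCl4-fib than in HSC and 7 were lower in NASH-fib than in CCl4-fib.

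NASH-fib were then compared with CCl4-fib to ask how fibroblasts of the 2 models differ. The stalk genes were lower in NASH-fib, together with Rpl8, Rpl10a, Rpl12, Rps2, Rps10, Rps13, Rps16 and Rps20, and no gene was higher. This gave 11 genes (14.5%) with a limma adjusted p under 0.05, against 5.66% of all genes lower and 4.97% higher. The 2 comparisons share the CCl4-fib libraries, and 10 of these genes were called in both. The median log2 fold change was -0.54, against -0.11 over all genes. It became 0.05 without NASH-fib replicate 1. The groups did not overlap in 18 genes that were lower (23.7%, against 22% of all genes) and in 3 that were higher (3.95%, against 17.1%).

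Rplp1 differed by -2.87 (SE 0.44, limma adjusted p = 0.00863) and Rplp2 by -3.08 (SE 0.50, adjusted p = 0.01), and both were called in all 22 alternatives. Rplp0 differed by -3.31 (SE 0.87, adjusted p = 0.0376), and lost its call when any CCl4-fib library, HSC replicate 1, or NASH-fib replicate 1 or 3 was left out. Nor was Rplp0 called by edgeR on all 9 libraries (-2.59, edgeR adjusted p = 0.0658). Without both libraries that stood apart it differed by -2.24, with an adjusted p of 0.016. Rps16 differed by -1.91 (SE 0.33), Rpl10a by -1.79 (SE 0.40), Rpl12 by -1.69 (SE 0.32), Rps13 by -1.60 (SE 0.34) and Rps20 by -1.49 (SE 0.33). Each of these genes lost its call without CCl4-fib replicate 2 or NASH-fib replicate 3. Rpl10a, Rps13 and Rps20 also lost theirs without CCl4-fib replicate 1 or 3. Under the later correction for GC content and length Rpl10a was at -0.78 and Rpl12 at -0.50, and the calls of Rps13 and Rps16 were lost too. Rpl8 and Rps10 differed by -2.41 (SE 0.64) and -2.72 (SE 0.70). Among other settings, both lost their calls with the label prefix as a term and with a block on replicate numbers. The same held when HSC replicate 1, CCl4-fib replicate 1 or 2, or NASH-fib replicate 1 or 3 was left out. Rpl36 changed most, at -4.31 (SE 1.24), but its adjusted p was 0.0505. Rpl18 followed with -3.37 (SE 1.26, limma adjusted p = 0.111). The largest increases were those of Rpl9 (0.50), Rpl35a (0.48) and Rpl22 (0.40), none of which passed.

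The number of genes lower in NASH-fib was 13 without both libraries that stood apart, the same 11 with Rpl27a and Rpl36. Leaving out CCl4-fib replicate 1, 2 or 3 gave 4, 2 and 5 genes. Leaving out NASH-fib replicate 1 or 3 gave 6 and 2, and leaving out HSC replicate 1 gave 8. With the correction for GC content and length it was 7, and Rps6 was then higher, again only in the later version.

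**Figure D5:**
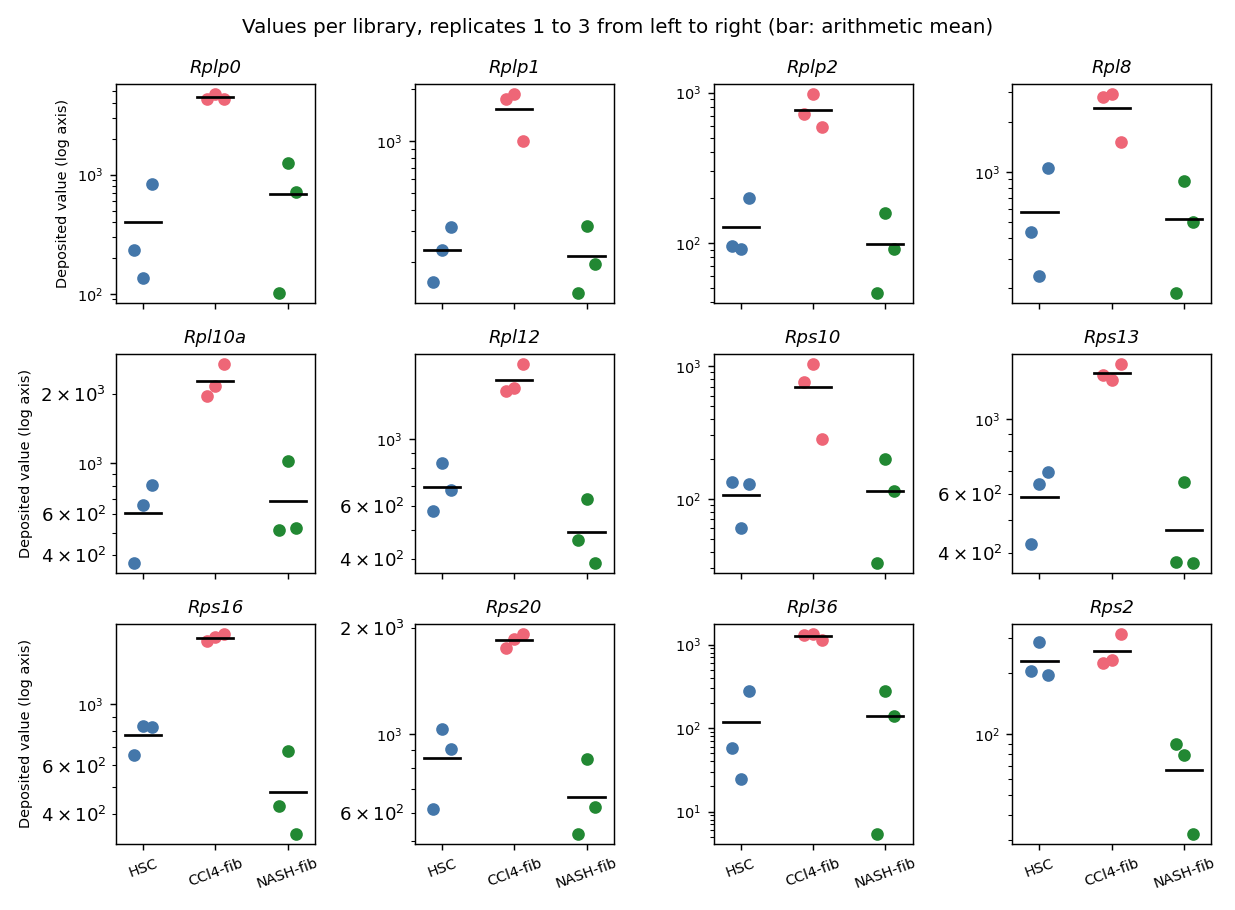
Deposited values (y axes, log scale, a different range in each panel) of 12 ribosomal protein genes in HSC, CCl4-fib and NASH-fib (x axes). Points are libraries in the order of replicates 1 to 3 and bars are arithmetic means. In the panels other than Rps2, the CCl4-fib points lie above all points of HSC and NASH-fib, and for Rps2 the NASH-fib points lie below all others.

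NASH-fib were finally compared with HSC. Only Rps2 differed among the 76 genes, being lower in NASH-fib, and no gene was higher, against 8.23% of all genes higher and 4.3% lower. At an unadjusted p under 0.05 the limma test likewise gave 1 lower and 0 higher, and both DESeq2 and edgeR called 1 lower and 0 higher. Rps2, near the entry of mRNA into the small subunit (NM_008503, chr17:24720063-24721927), had values of 204.57, 285.41 and 197.27 in HSC, 225.41, 233.89 and 311.98 in CCl4-fib, while NASH-fib had 89.72, 79.27 and 32.43. The 3 NASH-fib libraries thus lay below all 6 others. The log2 fold change was -1.86 (SE 0.44, limma adjusted p = 0.0176) against HSC and -2.03 (SE 0.44, adjusted p = 0.0213) against CCl4-fib. Rps2 had the fewest reads per base of the 76 genes, with 33 to 327 reads a library. The call against HSC was lost without HSC replicate 1 or 2 or NASH-fib replicate 3, in the fit on the 2 groups alone (adjusted p = 0.0637), with the label prefix as a term (0.190) and under the correction for GC content and length (0.0948). That against CCl4-fib was lost without any 1 of the CCl4-fib libraries or NASH-fib replicate 3, with the prefix term (0.0631) and with the correction (0.466).

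The median log2 fold change of the 76 genes in NASH-fib against HSC was -0.02, as over all genes. The groups did not overlap in 1 gene, which was lower (1.32%, against 11.6% of all genes), and in 0 that were higher (against 12.7%). After Rps2 the largest decreases were those of Rpl34 (-0.86) and Rps16 (-0.73), and the largest increases those of Rpl28 (0.95), Rpl29 (0.73) and Rpl14 (0.68). None of these 5 passed. Both groups include a library that stood apart, and without both of them 2 genes were lower, the second being Rpl34 at -0.94 (limma adjusted p = 0.0268).

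Genes of other steps of protein synthesis were looked at by lists. Their counts are to be read against the shares of all genes given above, namely 16.2% higher and 11.7% lower in CCl4-fib against HSC, and 4.97% higher and 5.66% lower in NASH-fib against CCl4-fib. Of 19 tested genes for elongation and other TOP mRNAs, 2 were higher in CCl4-fib than in HSC and the same 2 were lower in NASH-fib than in CCl4-fib. They were Eif3h, a subunit of initiation factor eIF3 (2.01 and -2.48), and Eef1b2, the exchange factor of elongation factor 1 (1.79 and -1.68). Of 28 initiation factor genes, 3 were higher in CCl4-fib against HSC, including Eif3g (1.87) and Eif6 (1.36), and 1, Eif5b, was lower (-1.33). Against CCl4-fib, 2 of them were lower in NASH-fib, Eif4h (-1.92) and Eif3c (-1.74). Both lists had a smaller share of higher genes in CCl4-fib against HSC than all genes had. No gene of these 2 lists passed in NASH-fib against HSC.

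Of 55 tested genes for ribosome biogenesis, 4 rose and 2 fell in CCl4-fib against HSC, both smaller shares than over all genes. Nhp2 and Dkc1, both of the complex that converts uridine to pseudouridine in ribosomal RNA, went in opposite directions, by 2.61 and -1.55. Nop56, of the box C/D particles, rose by 1.74, and Mdn1, an ATPase of large subunit maturation, fell (limma adjusted p = 0.0423). In NASH-fib against CCl4-fib, Nhp2 was lower (-3.57) and Dkc1 higher (1.67), and against HSC Lyar was lower (-1.69). Of 10 tested genes with symbols close to the rule, 4 were higher in CCl4-fib than in HSC, including Rps4l (2.14) and Fau (1.99), and 2 were lower in NASH-fib than in CCl4-fib, Rps4l (-2.27) and Rplp2-ps1 (-1.86). The last of these is a copy of Rplp2 and may share its reads.

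Of the 77 mitochondrial ribosomal protein genes, 11 rose in CCl4-fib against HSC, 7 were lower in NASH-fib against CCl4-fib, the first a share near that of all genes, and 0 passed in NASH-fib against HSC, where 2 were lower at an unadjusted p under 0.05. Mrps18a (4.35 and -3.66) and Mrpl28 (3.43 and -3.94) changed most among those that passed. The list's median log2 fold changes were 0.80 and -0.68, against 0.46 and -0.54 for the cytosolic genes. Among 25 genes for upstream signals, 1 was higher and 2 were lower in CCl4-fib against HSC, again smaller shares than over all genes. Akt1, a kinase that activates mTOR, was higher in CCl4-fib than in HSC (1.83) and lower in NASH-fib than in CCl4-fib (-2.90). Deptor, an inhibitor of mTOR, was lower in CCl4-fib (-2.82) and higher in NASH-fib against CCl4-fib (2.43). Eif4ebp2, which holds back cap-dependent translation, was lower in CCl4-fib (-1.56), and Max, the partner of Myc, was lower in NASH-fib than in CCl4-fib (-1.78).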

How the data were processed

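RNA was amplified with the SMARTer Ultra Low Input kit and sequenced as single-end reads. Per the labels and the file header, the authors used CASAVA and STAR on mm10, counted reads of both strands on exons with HOMER, keeping at most 3 per position and 1 entry per gene, and normalized 10 libraries for DESeq2, of which 9 are columns here. The deposited values are a signal per gene, reads times 1 factor per library, and 100% of values were whole reads to within 0.05. The file's other columns describe each gene (0 further columns of values were left unused).

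Genes with enough reads (filterByExpr of edgeR 4.0.16, minimum 10) were tested with limma 3.58.1 (trend) on log2(value + 1), with 3 groups in 1 fit and Benjamini-Hochberg adjustment over 13651 genes, in R 4.3.3. Fold changes on this scale understate those of low genes. Each library is a pool of mice, so p-values measure the spread between pools. No 2 libraries agreed within counting noise (chi-square per gene at least 18.6). Tests were tried on simulated data. DESeq2 1.42.0 and edgeR on recovered reads, other scalings, filters, pseudocounts, a block on replicate numbers, label prefixes and left-out libraries were alternatives. GC content came from GENCODE M21 transcripts. The correction for GC content and length was added after seeing the data. Its first version took transcripts by accession, and after its calls were seen it was replaced by the transcript nearest in length, since some, as for Rps20, were far too long. Both are reported. The genes, lists and rules for naming genes (stalk genes, genes with other known roles, the 3 largest changes each way, the most and fewest reads per base, the 2 largest called changes each way per list) were chosen with earlier results of these data known. The values of 1 gene are not reported here, and it is left out of the plot of fold changes, but the counts and medians include it.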

Additional observations from a re-analysis of the deposited data

How the results depend on the processing

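Of 360 counts, medians and shares recomputed under alternatives, 306 stayed within 1.5-fold or within the spread between libraries. That limit is loose, so this number says little about robustness. For medians it was 0.70, which is larger than the size of every main median, and counts of 0 in both fits were taken as unchanged. Only 10 of the 76 genes averaged under 1 read per base. Of these 10, the main fit called 2 higher in CCl4-fib than in HSC and 3 lower in NASH-fib than in CCl4-fib. In CCl4-fib against HSC the 11 higher genes became 5 with the label prefix as a term. They became 4 with the correction for GC content and length, where 2 were lower. The first version of that correction gave 5 higher (4 also past the fold threshold) and 1 lower. In NASH-fib against CCl4-fib the 11 lower genes became 7 with the prefix term. They also became 7 with either version of the correction, where the later one gave 1 higher. In NASH-fib against HSC the 1 lower gene became 0 in the fit on the 2 groups alone and with the prefix term, and 2 without both libraries that stood apart. The cause of these shifts was not tested. The genes under 1 read per base alone took 0.167% of the reads in HSC, 0.220% in CCl4-fib and 0.166% in NASH-fib. Leaving out 1 library at a time, which leaves 2 in that group, gave 4 to 16, 2 to 13 and 0 to 1 genes in these comparisons. Directions turned under the correction for Rpl12 (-0.22) and Rpl38 (-1.01) in CCl4-fib against HSC and for Rps6 in NASH-fib against CCl4-fib (1.29), and in its first version for Rpl38 (-1.15). DESeq2 called 12 and 12 and edgeR 10 and 9 in the first 2 comparisons. With edgeR's scaling the medians were 0.17 (all genes 0.00) and -0.17 (all genes 0.14).

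For libraries of the same replicate number, the correlations of their deviations from the group means ran from -0.47 to 0.51. HSC replicate 2 and NASH-fib replicate 1 stood apart under different numbers, so these correlations cannot show whether replicate numbers pair the libraries. With the replicate block 11 genes were higher in CCl4-fib than in HSC, 9 were lower in NASH-fib than in CCl4-fib and 1 was lower in NASH-fib than in HSC. Depth limits what can be seen of Rps2 and Rpl36, which had as few as 33 and 4 reads in a library, and the cap limits genes with many reads per base.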
